A study of Homo sapiens with 21 samples.

Results

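Expression of 10 WNT target genes was examined in 21 human cancer cell lines: AXIN2, NKD1, LGR5, TCF7, LEF1, DKK1, RNF43, ZNRF3, GLUL and TBX3. The genes were taken by symbol from the array tables. All 10 were listed among the 37878 genes shared by the tables of the hepatocellular carcinoma (HCC) lines and among the 34601 genes of the lung and pancreas table. The lines were untreated, and RNA of each was hybridised once to an Illumina BeadChip. The 5 lung lines are labelled Calu-1, Calu-3, Malme-3M, NCI-H1299 and NCI-H596, and the 5 pancreas lines AsPC-1, BxPC-3, Capan-1, Capan-2 and MIA-PaCa-2. The labels of the 11 HCC lines are Hep3B, HLF, Huh-1, JHH-4, JHH-6, PLC/PRF/5, SK-HEP-1, SNU-423, SNU-475, SNU-739 and SNU-886. Raw values of SNU-475 were deposited apart from the other 10 HCC lines, with detection p-values to more decimals, and were normalized with them. What this does to the values of SNU-475 was not tested. HCC lines were read on another array design than the other 10 lines, so the sets were normalized apart and no HCC level is compared with a level in a lung or pancreas line. The labels give tissue as the grouping and name different culture media for different lines, so the spread between lines of a group holds genotype, origin and culture together.

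WNT ligands bind Frizzled and LRP receptors, which stops the APC, AXIN and GSK3 complex from marking beta-catenin for degradation. Beta-catenin then enters the nucleus, binds the TCF/LEF factors and switches on target genes, many of which feed back on the pathway. In the liver the pathway maintains the zone of hepatocytes around the central vein, where GLUL, TBX3, LGR5 and AXIN2 are known targets, and activating beta-catenin mutations are frequent in HCC. AXIN2 and NKD1 restrain the pathway inside the cell. RNF43 and ZNRF3 remove Frizzled receptors from the membrane, and LGR5 is a receptor for R-spondins, which neutralise RNF43 and ZNRF3. DKK1 is a secreted blocker of LRP receptors. TCF7 and LEF1 are among the DNA-binding TCF/LEF partners of beta-catenin, with TCF7L1 and TCF7L2, GLUL encodes glutamine synthetase, and TBX3 is a T-box transcription factor.

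The TCF/LEF factors bind a short element, so promoters of targets that varied strongly between lines are shown with it. The RefSeq table of windows from 250 bases before to 50 bases after a gene start (build GRCh38.p14) held 5 of the 10 members: TCF7, LEF1, DKK1, RNF43 and GLUL. The 7 letters searched on both strands were CTTTG followed by AT, AA, TA or TT, and no matches overlapped. DKK1 and LEF1 are shown because they were raised together in SK-HEP-1 and in the library labelled Capan-2. One TCF7 window is added because it holds a match. Capitals mark matches, and each sequence reads 5′ to 3′ on the strand of the gene.
DKK1, chr10:52314031-52314330, plus strand: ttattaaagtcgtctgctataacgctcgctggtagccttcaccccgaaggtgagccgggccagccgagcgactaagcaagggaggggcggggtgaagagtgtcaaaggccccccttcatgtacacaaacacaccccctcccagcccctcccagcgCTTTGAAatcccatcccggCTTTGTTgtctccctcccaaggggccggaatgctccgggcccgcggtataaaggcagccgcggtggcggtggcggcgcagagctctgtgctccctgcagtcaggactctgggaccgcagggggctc
LEF1, chr4:108166252-108166551, minus strand: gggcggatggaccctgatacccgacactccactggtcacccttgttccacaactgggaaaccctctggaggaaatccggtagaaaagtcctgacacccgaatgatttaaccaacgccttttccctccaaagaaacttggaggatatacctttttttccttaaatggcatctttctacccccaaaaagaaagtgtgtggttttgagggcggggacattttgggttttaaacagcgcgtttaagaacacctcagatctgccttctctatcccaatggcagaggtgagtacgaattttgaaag
TCF7, chr5:134123368-134123667, plus strand: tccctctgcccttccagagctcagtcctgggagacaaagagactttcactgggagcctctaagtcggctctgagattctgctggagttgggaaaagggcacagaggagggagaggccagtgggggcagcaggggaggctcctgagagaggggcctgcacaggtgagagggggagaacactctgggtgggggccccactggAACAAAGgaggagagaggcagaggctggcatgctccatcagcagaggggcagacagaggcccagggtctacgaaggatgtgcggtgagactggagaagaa
The DKK1 window held 2 matches, CTTTGAA in its bases 156 to 162 and CTTTGTT in its bases 175 to 181. The TCF7 window held 1, CTTTGTT on the opposite strand, in the window's bases 201 to 207. The LEF1 window, the other TCF7 window and the windows of RNF43 and GLUL held none. Of 35116 promoter windows of the same length, 13.8% held at least 1 match, and a match is a description of the letters and not a binding site.

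Values below are log2 intensities after background correction and normalization, and a gene is called detected in a line when the deposited detection p-value is under 0.05. A member is called raised in a line when it was detected there and stood at least 1 log2 above its own median over the lines of its set. Fold differences include an offset of 16 added before the logarithm, which makes folds of dim genes smaller. Each line is 1 array, so the order of single lines carries no error of its own and neighbouring lines were not tested against each other.

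Some libraries had markers unlike what their labels are known for, or departed from the other arrays. The library labelled Hep3B was dim: 24.9% of its genes were detected against 32.6% to 35.1% in the other HCC lines, and the 95th percentile of signal stood 4.77 times over background against 10.1 to 26.3 times. It had 0 of 6 epithelial markers detected (EPCAM was bright at 13.70 but missed detection) and AFP at 4.69, not detected, although ALB was detected at 7.74. All 9 hepatocyte markers were detected in Huh-1 and PLC/PRF/5, and 0 to 5 of 9 in the other HCC lines. In the library labelled Capan-2 the keratins KRT8, KRT18 and KRT19 stood at 5.54, 5.13 and 5.16, none detected, with VIM at 15.45, EPCAM at 11.43, PDX1 at 6.73 and ALB at 10.38, all detected. Its 7 pancreatic markers, PDX1 among them, had 2 detected, as in MIA-PaCa-2. They summed to a linear intensity of 547, against 5128 to 19646 in the other pancreas lines and 3282 to 16309 in lung lines. Its 6 epithelial markers (3 detected) summed to a linear intensity of 3166, against 17794 to 80823 in the other pancreas lines and 2987 to 54372 in lung lines, and 0 of 4 leukocyte markers were detected in it. The library labelled Calu-3, a name known for an epithelial line, had CDH1 at 4.87, not detected, but 4 of 6 epithelial markers detected. Its 6 epithelial markers summed to 4620, above the 2987 of NCI-H1299, which had 3 of 6 detected. The departure of Calu-3 is thus given for CDH1 only. The library labelled Malme-3M, a name known for a melanoma line from a lung metastasis, had CDH1 at 11.19, EPCAM at 13.40 and KRT19 at 13.22. All 6 epithelial and 4 of 6 mesenchymal markers were detected in it. Of 6 melanocyte markers 1 was detected, as in Calu-1 and NCI-H1299, and MLANA, TYR, DCT and SOX10 were not. The mean of these 6 was 5.91, the highest among lung lines. These lines are called below by their labels, and tests, correlations and counts per line that include the libraries labelled Capan-2, Calu-3 and Malme-3M are given with and without them where they change.

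**Figure D1:**
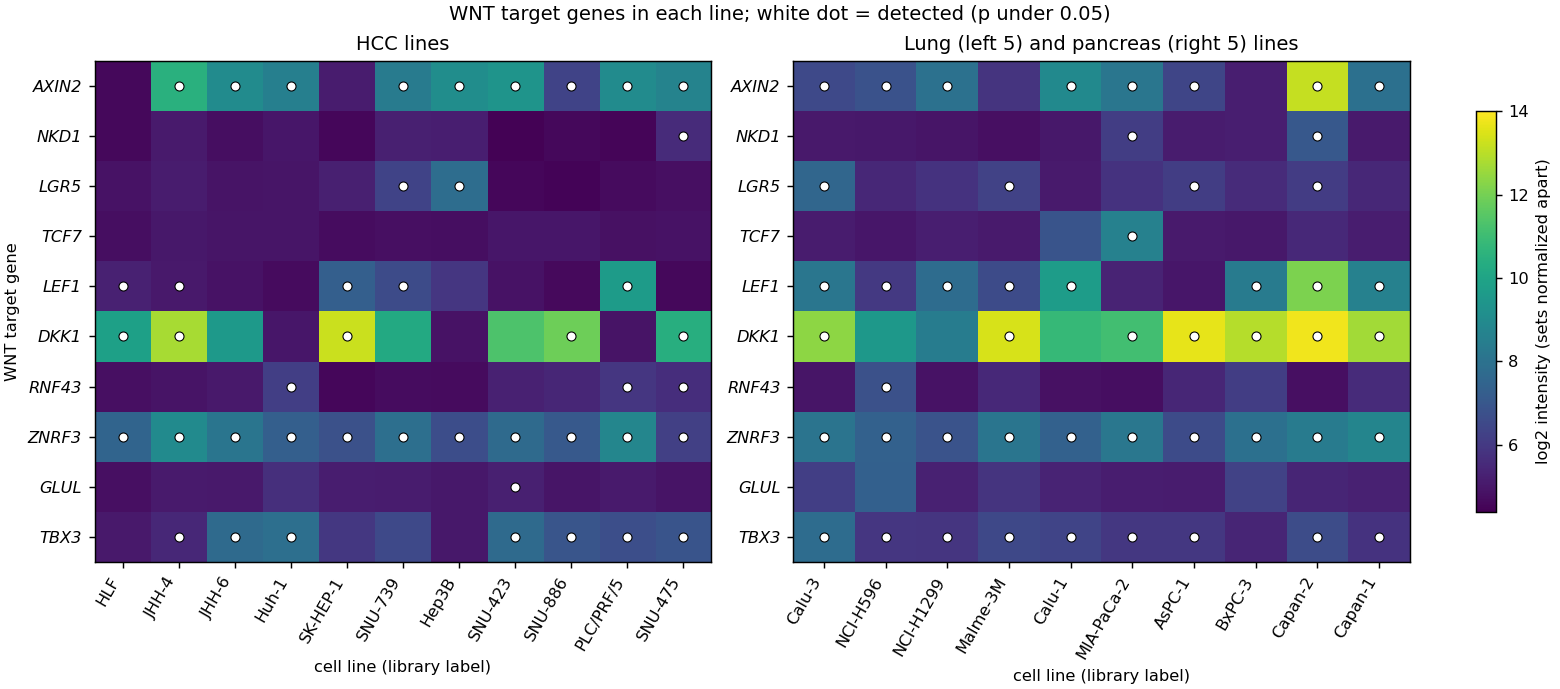
Log2 intensity of the 10 WNT target genes (rows) in each line (columns), with HCC lines on the left and lung then pancreas lines on the right, normalized apart. White dots mark detection p-values under 0.05. ZNRF3 was detected in all 21 lines, and the brightest AXIN2 value of the lung and pancreas set, 13.15, is in the library labelled Capan-2.

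Among HCC lines, AXIN2 and ZNRF3 were the widely expressed members. AXIN2 was detected in 9 of 11 HCC lines. It was 10.49 in JHH-4, 9.36 in SNU-423, 9.12 in the library labelled Hep3B, 9.03 in both JHH-6 and PLC/PRF/5, 8.70 in SNU-475, 8.54 in Huh-1, 8.41 in SNU-739 and 6.33 in SNU-886. HLF and SK-HEP-1 had AXIN2 at 4.61 and 5.13, not detected. JHH-4 stood 2.18-fold above SNU-423, the next line, and SNU-886, SK-HEP-1 and HLF had the lowest values. The place of Hep3B rests on the normalization of a dim array: its raw AXIN2 signal was 1.79 times background, below SNU-886 at 1.89 times.

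ZNRF3 was detected in 11 of 11 HCC lines, with a low of 6.22 in SNU-475, a median of 7.49 and a high in JHH-4, at 8.999. PLC/PRF/5 came next at 8.81, so JHH-4 was 1.14-fold above it. Its relative RNF43, the other membrane ligase, was dim: Huh-1 had 6.18, PLC/PRF/5 5.93 and SNU-475 5.66, and it was not detected in the other 8 HCC lines. The lines that led for ZNRF3 and for RNF43 differed, apart from PLC/PRF/5.

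NKD1 was detected only in SNU-475 among HCC lines, at 5.56, close to background. LGR5 was detected in 2 of 11 HCC lines, at 7.83 in the library labelled Hep3B and 6.33 in SNU-739, and it lay between 4.48 and 5.25 elsewhere. Quantile normalization gives the dim Hep3B array the same spread as the others, and the share of genes raised was 22.9% there, so its LGR5 value stands beside many other raised genes. As raw signal over background the order turned, with LGR5 at 1.29 times in Hep3B and 1.77 times in SNU-739.

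DKK1 had the widest range of the members in HCC lines. It was 13.22 in SK-HEP-1, 12.75 in JHH-4, 11.87 in SNU-886, 10.43 in SNU-475 and 9.87 in HLF, all detected. SNU-423, SNU-739 and JHH-6 had 11.32, 10.22 and 9.56 but missed detection, with p-values of 0.07, 0.16 and 0.33, so a bright gene can miss the threshold in these tables. Huh-1, PLC/PRF/5 and Hep3B had 4.96, 4.92 and 4.87, at background and far below the other 8 lines. Huh-1 and PLC/PRF/5 were also the lines with all 9 hepatocyte markers detected.

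Of the member TCF/LEF factors, LEF1 was detected in 5 of 11 HCC lines and TCF7 in none. LEF1 was 9.66 in PLC/PRF/5, 7.29 in SK-HEP-1, 6.59 in SNU-739, 5.29 in HLF and 5.06 in JHH-4, all detected, so PLC/PRF/5 was 5.17-fold above the second line. It was not detected in the other 6 HCC lines. TCF7 spanned 4.73 to 5.02. The factor TCF7L2, from the list of nuclear genes, was detected in 9 of 11 HCC lines, with 7.25 in SNU-739 as its highest value, and TCF7L1 in 2 of 11.

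Of the liver-associated targets, TBX3 was detected in 7 of 11 HCC lines, with 7.91 in Huh-1, 7.73 in SNU-423, 7.72 in JHH-6, 6.93 in SNU-886, 6.90 in SNU-475, 6.72 in PLC/PRF/5 and 5.46 in JHH-4. SNU-423 stood 1.01 log2 above the median of the lines and counts as raised, while JHH-6 stood 0.999 above it and does not. The row for GLUL was not well above background: values ran from 4.80 to 5.69, and only SNU-423, at 5.24, was detected. Levels at that floor have no order between lines.

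Counted by line, no HCC line had most of the 10 members raised. JHH-4 had 3 of 10 raised, AXIN2, DKK1 and ZNRF3, where 5.96% of the 22593 genes detected in at least 1 HCC line were raised. Huh-1 had RNF43 and TBX3 raised, against a background of 7.52%, and SK-HEP-1 had LEF1 and DKK1, against 6.91%. SNU-739 had LGR5 and LEF1, against 6.57%, and PLC/PRF/5 had LEF1 and ZNRF3, against 8.95%. Hep3B had LGR5 alone, against 22.9%, SNU-423 TBX3 alone against 5.41% and SNU-886 DKK1 alone against 7.91%. DKK1 in SNU-423 stood 1.09 log2 above its median but is not counted, with a detection p-value of 0.07. HLF, JHH-6 and SNU-475 had 0 of 10, where 5.39%, 5.11% and 8.01% of genes were raised. The members detected in a line, whether or not raised, numbered 3 to 6 of 10, and SNU-475 had the most, 6, with none raised. Of all genes, 24.9% (Hep3B) to 35.1% (SNU-739) were detected in an HCC line, and 34.4% in SNU-475. The members raised together differed from line to line, and no pair of members was raised together in 2 HCC lines. Without Hep3B the highest count was still 3, in JHH-4.

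**Figure D2:**
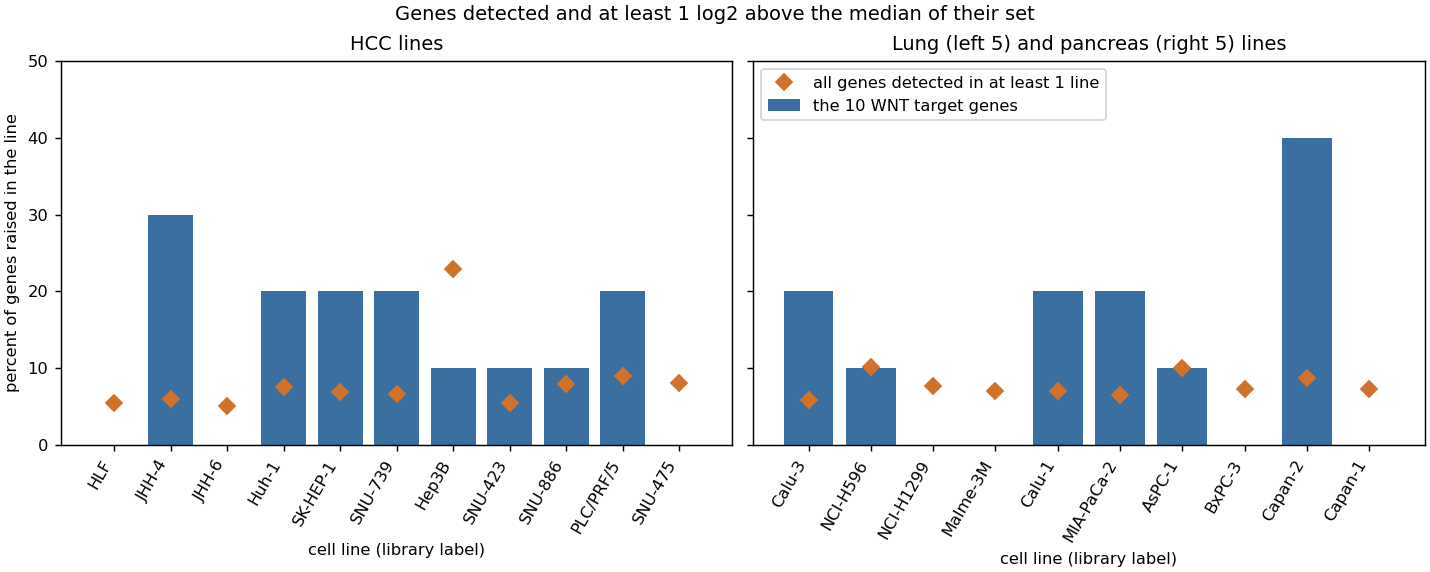
Percent of the 10 WNT target genes raised in each line (bars) beside the percent of all genes detected in at least 1 line of the set that were raised (diamonds). JHH-4 at 3 of 10 and the library labelled Capan-2 at 4 of 10 stand highest, and the diamond of Hep3B is at 22.9%.

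Across the 11 HCC lines the members did not vary as 1 group. Of 15 pairs among the 6 members detected in at least 3 lines, 8 had a positive and 7 a negative Pearson r, with a median of 0.006, and without Hep3B 6 were positive and 9 negative, with a median of -0.06. The highest was RNF43 with TBX3 at 0.66 (Spearman 0.73). RNF43 was detected in only 3 of these 11 lines and TBX3 in 7, so this r includes many background values. AXIN2 with ZNRF3 had 0.43 (Spearman 0.39), or 0.53 without Hep3B, AXIN2 with LEF1 -0.06 and AXIN2 with DKK1 -0.29. These values share array, background and normalization, and are descriptions over 11 points.

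In the lung and pancreas set, the library labelled Capan-2 stood apart for AXIN2 and LEF1. AXIN2 was 6.51 in Calu-3, 6.81 in NCI-H596, 7.99 in NCI-H1299, 5.83 in Malme-3M and 8.94 in Calu-1, against 8.18 in MIA-PaCa-2, 6.42 in AsPC-1, 5.19 in BxPC-3, 13.15 in Capan-2 and 7.94 in Capan-1. Only Malme-3M and BxPC-3 missed detection. Capan-2 was 18.5-fold above Calu-1, the second line, and without Capan-2 the lung and pancreas values interleave.

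LEF1 was 8.17 in Calu-3, 6.01 in NCI-H596, 7.80 in NCI-H1299, 6.60 in Malme-3M and 9.70 in Calu-1, against 5.36 in MIA-PaCa-2, 4.98 in AsPC-1, 8.38 in BxPC-3, 12.11 in Capan-2 and 8.61 in Capan-1. It was detected in all lung lines and in 3 of 5 pancreas lines, not in MIA-PaCa-2 and AsPC-1. Capan-2 was 5.34-fold above Calu-1. TCF7, the related factor, was detected in MIA-PaCa-2 alone, at 8.61, a line in which LEF1 was not detected.

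DKK1 was bright in both groups. It was 12.38 in Calu-3, 9.50 in NCI-H596, 8.44 in NCI-H1299, 13.40 in Malme-3M and 10.82 in Calu-1, against 11.11 in MIA-PaCa-2, 13.64 in AsPC-1, 12.94 in BxPC-3, 13.80 in Capan-2 and 12.66 in Capan-1. NCI-H596, NCI-H1299 and Calu-1 missed detection with p-values of 0.21, 0.10 and 0.07. All 5 pancreas lines lay at 11.11 or above, as did Calu-3 and Malme-3M.

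Among the membrane regulators, ZNRF3 was detected in 10 of 10 lines with values of 6.59 in AsPC-1 to 8.75 in Capan-1, and none was raised. RNF43 was detected only in NCI-H596, at 6.80. LGR5 was highest in Calu-3, at 7.56, and was also detected in Malme-3M, AsPC-1 and Capan-2 at 6.29 or less. NKD1 was detected in Capan-2 at 7.03 and in MIA-PaCa-2 at 6.16, and in no lung line. TBX3 was detected in 9 of 10 lines and was highest in Calu-3, at 7.79. GLUL was detected in none, its highest value being 7.33 in NCI-H596.

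By line, the library labelled Capan-2 had 4 of 10 members raised, AXIN2, NKD1, LEF1 and DKK1, where 8.71% of the 21122 genes detected in at least 1 of these lines were raised. Calu-1 had AXIN2 and LEF1 raised against 7.04%, MIA-PaCa-2 had NKD1 and TCF7 against 6.52%, and Calu-3 had LGR5 and TBX3 against 5.86%. NCI-H596 had RNF43 alone and AsPC-1 DKK1 alone, with backgrounds of 10.1% and 10%. TCF7 in Calu-1 stood 1.76 log2 above its median but is not counted, with a detection p-value of 0.05. GLUL in NCI-H596 stood 1.94 above its median, with a detection p-value of 0.17. With no detection asked the highest count was still 4, in Capan-2. NCI-H1299, Malme-3M, BxPC-3 and Capan-1 had 0 of 10, with backgrounds of 7.65%, 7.02%, 7.31% and 7.21%. AXIN2 and LEF1 were raised together in Capan-2 and Calu-1, the only pair of members raised together in more than 1 line of the set. The marker values of Capan-2 given above, with keratins at background, come from the same array as its high AXIN2 and LEF1. Their part in the result was not tested. Without Capan-2 the highest count was 3, in MIA-PaCa-2, and without the libraries labelled Calu-3, Malme-3M and Capan-2 it was 2.

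Over the 10 lung and pancreas lines, 13 of 15 pairs among members detected in at least 3 lines had a positive Pearson r, with a median of 0.22. Without Capan-2 it was 9 of 15, with a median of 0.13, and without Calu-3 and Malme-3M as well 7 of 15, with a median of -0.09. LGR5 with TBX3 had 0.80 (Spearman 0.55), but -0.30 over the 7 lines left without the 3 libraries. AXIN2 with LEF1 had 0.70 (Spearman 0.42), which fell to 0.26 without Capan-2 and so rests on that library. AXIN2 with DKK1 had 0.05 over the 10 points and -0.56 without Capan-2.

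**Figure D3:**
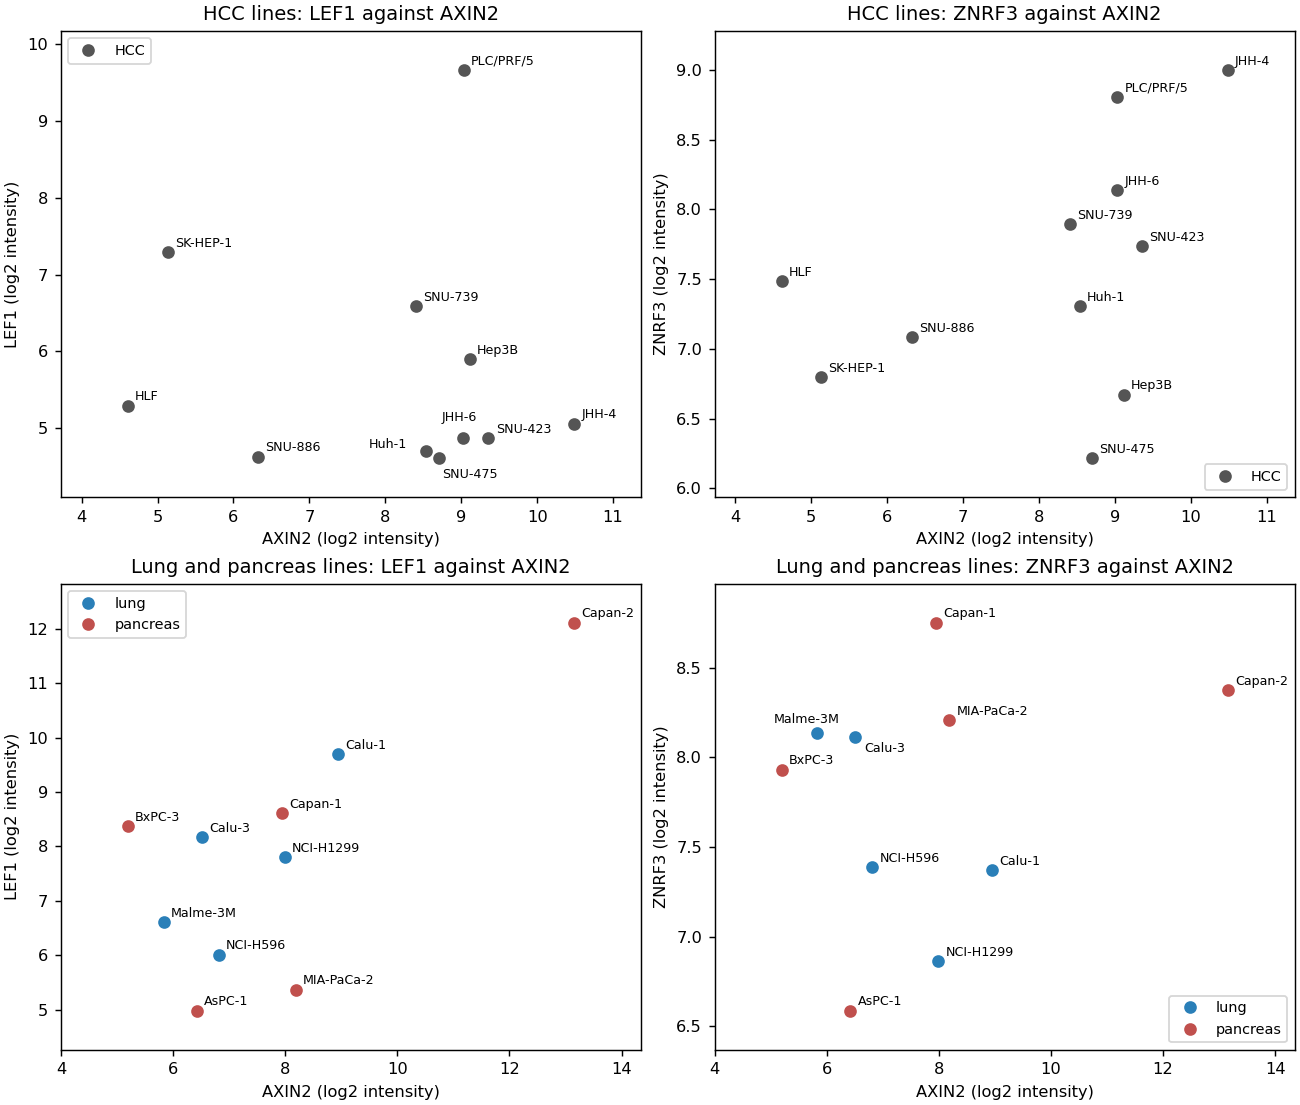
LEF1 (left) and ZNRF3 (right) against AXIN2, each as log2 intensity with 1 point per line; HCC lines above, lung and pancreas lines below. In the HCC panels JHH-4 is furthest right and PLC/PRF/5 highest for LEF1, and in the lower panels Capan-2 lies at AXIN2 13.15 and LEF1 12.11, apart from the other 9 lines.

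Lung lines were compared with pancreas lines for the 6 members detected in at least 3 of the 10 lines. None of the 6 passed limma at an adjusted p of 0.05, where 1 of 17119 tested genes did (0.00584%), BTBD6, which is not a WNT target gene and is named because it was the only one. DKK1 had the largest difference, averaging 10.91 ± 2.03 in lung lines and 12.83 ± 1.07 in pancreas lines (SD, n = 5 each), a log2 difference of -1.92 with a 95% interval of -3.97 to 0.12 (limma, adjusted p = 0.9998). AXIN2 averaged 7.22 ± 1.24 in lung lines and 8.18 ± 3.03 in pancreas lines, with a difference of -0.96 (interval -3.87 to 1.94). Without the library labelled Capan-2 that difference was 0.28, and without the 3 libraries labelled Calu-3, Malme-3M and Capan-2 it was 0.99. LEF1 differed by -0.23 (interval -3.09 to 2.63), by 0.82 without Capan-2 and by 1.01 without the 3 libraries. DKK1 differed by -2.98 without the 3 libraries (limma, adjusted p = 0.838, the lowest over its alternatives, which reached 1.00). It lay between -2.54, without Malme-3M, and -1.31, without NCI-H1299, when single lines were left out. ZNRF3 differed by -0.40 (interval -1.33 to 0.54), TBX3 by 0.54 (interval -0.31 to 1.40) and LGR5 by 0.23 (interval -0.71 to 1.17) or, without Calu-3, by -0.15. Without the 3 libraries ZNRF3 differed by -0.67 and TBX3 by 0.29, and LGR5 was detected in too few lines to be tested. The median difference of the 6 members was -0.31, beside 0.00 over all tested genes. In none of the 6 were the groups free of overlap, where 0.613% of tested genes had no overlap, and 0 of 6 had an unadjusted p under 0.05 (3.65% of tested genes). NKD1, TCF7, RNF43 and GLUL were not tested. NKD1 was detected in 0 of 5 lung lines and in 2 of 5 pancreas lines, where it averaged 5.72. That mean was 1.25-fold above the floor of the lung arrays, taken as their lowest detected signals. Without Capan-2, where NKD1 was brightest, the mean of the other pancreas lines was not above that floor. TCF7, detected in 0 of 5 lung lines and 1 of 5 pancreas lines, averaged 5.88 in pancreas lines. This was 1.12-fold above the floor, with Calu-1 kept at its own 6.91, not detected. Both means lay below the median signal at a detection p of 0.05, 6.02 to 6.22 on lung arrays, so no least fold is given.

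**Figure D4:**
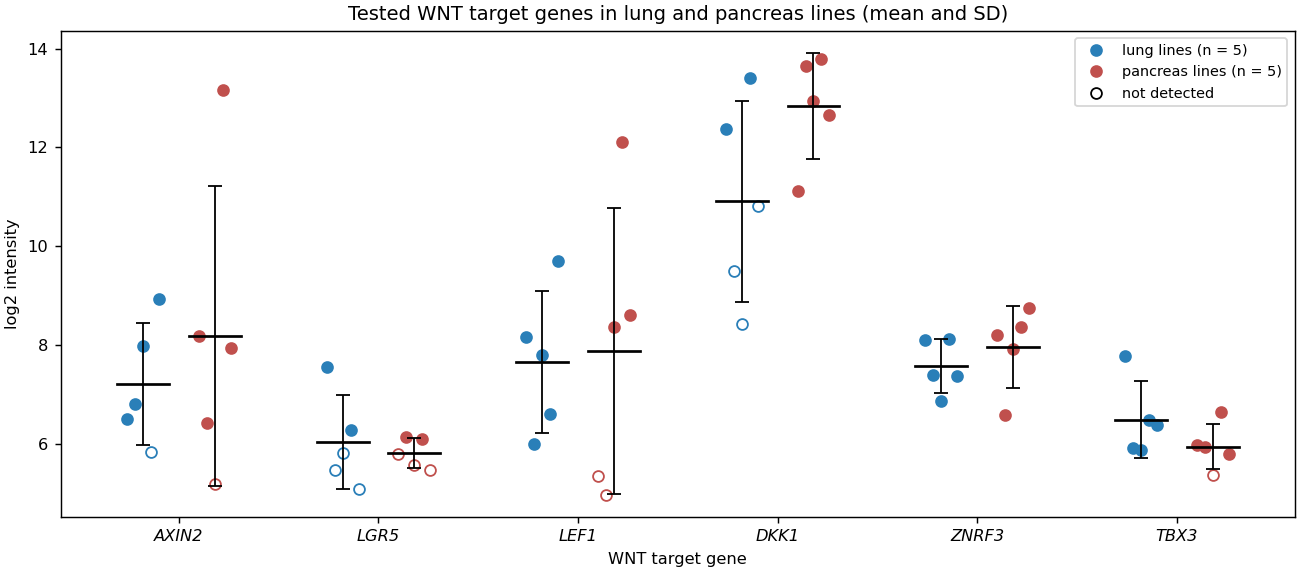
Log2 intensity of the 6 tested WNT target genes in lung lines (blue, left) and pancreas lines (red, right), 1 point per line, with the group mean and SD; open points were not detected. The groups overlap for all 6 genes.

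Genes whose levels followed AXIN2 most closely were ranked in each set. Over the 11 HCC lines, the 5 with the highest Pearson r among 15582 genes were TAF4, a subunit of the general transcription factor TFIID, at 0.870, SHRM at 0.815, SUSD1 at 0.795, BRD3, a bromodomain protein, at 0.789 and LOC440926 at 0.783. All 5 were detected in every HCC line, and ZNRF3 stood at rank 802. Over the 10 lung and pancreas lines they were GUCY1A2, a subunit of soluble guanylate cyclase, at 0.931, DACT3, a Dishevelled-binding protein, at 0.925, DLX5, a homeobox factor, at 0.915, LOC643888 at 0.913 and ALB, serum albumin, at 0.912, each highest in Capan-2, and LEF1 stood at rank 355 of 17118. Without Capan-2 the r of these 5 genes was 0.63 to 0.80.

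The rest of the pathway was followed in 9 lists with 103 genes, of which 102 were on the HCC arrays. In limma, 0 of the 68 genes tested passed between lung and pancreas lines at an adjusted p of 0.05 in either direction, and 3 (4.41%) had an unadjusted p under 0.05, close to the 3.65% of all tested genes. These were WNT2B, DKK3 and NKD2, named after their values were seen and given as values only. NKD2, the relative of NKD1, averaged 6.56 in lung lines and 9.51 in pancreas lines (log2 difference -2.95, SE 1.11). DKK3, a secreted DKK family member, averaged 7.51 in lung lines and 5.20 in pancreas lines (2.31, SE 1.00). WNT2B, a ligand, averaged 5.23 in lung lines and 6.10 in pancreas lines (-0.87, SE 0.32). The median difference of a list lay between -0.19, for the 9 tested inhibitors, and 0.65, for the R-spondin axis, of which LGR4 alone was tested. CTNNB1, which encodes beta-catenin and is named for its place in the pathway, spanned 8.18 to 9.78 in lung and pancreas lines and 7.32 to 9.51 in HCC lines, where Hep3B was highest.

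Within the HCC lines, the 3 genes of each list with the largest SD are given next, among genes detected in at least 3 of the lines. Genes detected in fewer lines, such as WNT5B, WNT7A and LECT2, can have a larger SD and were not ranked. Values of Hep3B come from the dim array. Among ligands these were WNT5A, WNT3 and WNT7B. WNT5A, mostly known for signalling without beta-catenin, was 10.36 in Huh-1 and not detected in PLC/PRF/5, at 4.49. WNT3 was detected in all HCC lines and spanned 6.37 in HLF to 10.73 in Hep3B, and WNT7B was highest in JHH-6, at 8.11. Among receptors, FZD2 was 8.33 or more in 10 HCC lines and not detected in Huh-1, at 4.59. FZD9 was highest in PLC/PRF/5, at 10.65, and FZD6 in SNU-475, at 10.52, and each was not detected in JHH-4. The ligand carrier WLS was 8.76 or more in 10 HCC lines and 4.77, not detected, in PLC/PRF/5, where LEF1 was highest. PORCN, which attaches the lipid to WNT ligands, spanned 5.32 in SNU-475 to 8.82 in Hep3B, where it missed detection.

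Among inhibitors, SFRP1 was 14.17 in SNU-423, 13.30 in SK-HEP-1 and 10.46 in SNU-739, and at most 6.26 in the other lines. SOST was 11.47 in Huh-1 and 9.94 in SNU-475, and at most 5.31 elsewhere, and DKK3 spanned 4.87 to 10.86. The lines with bright SOST had different DKK1 values, 4.96 in Huh-1 and 10.43 in SNU-475. RSPO3, an R-spondin, was highest in Hep3B and SNU-475, at 10.35 and 9.57, and LGR4, its receptor, spanned 5.99 to 8.60 with PLC/PRF/5 highest. Among cytoplasmic regulators, NKD2 was highest in JHH-6, at 11.16, and DVL1 spanned 4.92 to 7.21. AXIN1 had a median of 9.33 and was lowest in the separately deposited SNU-475, at 4.63 and not detected. Of the nuclear genes, TLE4, a corepressor, was highest in SK-HEP-1, at 9.59, TLE2 in Hep3B, at 9.48, and BCL9L, a beta-catenin cofactor, in SNU-475, at 9.16.

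Of other reported targets in HCC lines, MMP7, a matrix protease, was 13.38 in JHH-4, where AXIN2 was also highest, and 11.18 in SNU-886, where AXIN2 was 6.33. CD44 was at least 10.20 in 9 HCC lines, but 5.61 in Huh-1 and 4.90 in PLC/PRF/5. BAMBI was highest in SNU-475, at 13.67, and not detected in Hep3B, at 4.83. CYP2E1, a hepatocyte gene of the central zone, was detected in SK-HEP-1 at 7.13, SNU-423 at 6.31 and HLF at 5.85, and AXIN2 was not detected in SK-HEP-1 and HLF. OAT, of the same zone, was 9.25 or more in 10 HCC lines and not detected in JHH-6, at 4.96. Over all lists, the genes raised in a line numbered 4 of 102 (HLF) to 23 of 102 (Hep3B). These shares are over all listed genes on the array, whereas the backgrounds are over genes detected in at least 1 line. Of the 19 listed ligands, for example, 7 were never detected in HCC lines. The list shares are therefore understated beside the backgrounds. JHH-4 had 7 (6.86%, background 5.96%), PLC/PRF/5 18 (17.6%, background 8.95%), SNU-739 16 (15.7%, background 6.57%) and SNU-423 and SK-HEP-1 12 each (11.8%, backgrounds 5.41% and 6.91%), while the 23 of Hep3B (22.5%) stand beside a background of 22.9%.

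In the lung and pancreas set WNT5A was 11.23 in Calu-1 and 9.04 in Malme-3M, and WNT7A 10.73 in BxPC-3, 8.69 in NCI-H596 and 8.07 in Malme-3M. WNT10A was highest in AsPC-1, at 9.22. Calu-1, with AXIN2 and LEF1 raised, had the highest WNT5A, FZD2 (12.10) and FZD8 (10.40), and FZD9 was highest in NCI-H1299, at 9.35. WLS was not detected in MIA-PaCa-2, at 5.20, and stood at 9.52 or more in the other 9 lines, and PORCN was highest in BxPC-3, at 10.08. Among inhibitors DKK3 and SFRP1 were highest in NCI-H1299, at 10.95 and 9.07, and APCDD1 in NCI-H596, at 8.33. LGR4 was highest in BxPC-3, at 9.11, and AXIN1 and BCL9L in AsPC-1, at 11.91 and 10.07. NKD2 was highest in MIA-PaCa-2, at 11.22, one of the lines with NKD1 detected, as was TLE2, at 11.06. AMER1, a partner of APC, was highest in Malme-3M, at 7.12, TLE4 in NCI-H596, at 8.90, CYP2E1 in Malme-3M, at 7.51, and OAT in BxPC-3, at 12.57.

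Of the 16 other reported targets, 2 were raised in the library labelled Capan-2, where AXIN2 was highest, namely TNFRSF19 and FGF20. Several others were at background in it. MMP7 was 15.02 in Capan-1, 14.73 in AsPC-1 and 12.09 in BxPC-3, and 4.80, not detected, in Capan-2. CD44 was not detected in Capan-2 either, at 4.98, and was 10.88 or more in the other 9 lines. BMP4 was highest in Capan-1, at 12.22, and not detected in Capan-2, at 5.96. In Capan-2 16 of 103 listed genes (15.5%) were raised, beside the background of 8.71%. As in HCC lines, the list shares count listed genes never detected in the set, such as 7 of 19 ligands, and the backgrounds do not. Similar counts were seen in NCI-H596 with 19 (18.4%, background 10.1%), BxPC-3 with 16 (15.5%, background 7.31%) and Calu-1 with 14 (13.6%, background 7.04%), and the lowest was 6 in MIA-PaCa-2. Among those of Capan-2, and named after their values were seen, were the inhibitors WIF1 at 8.47, DKK2 at 7.64 and NOTUM at 7.49, the growth factor FGF20 at 8.26 and the receptor TNFRSF19 at 11.61, each highest in Capan-2 of the 10 lines.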

How the data were processed

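Total RNA of 21 untreated cell lines was read on Illumina BeadChips, 1 array per line. Per the file headers, the authors deposited for each gene an intensity (average bead signal) and a detection p-value. BeadStudio was used, per the submitters' processing notes; its version, the probe summary and the genome build were not given in the sources used. The authors' deposited processed intensity served as an alternative. Per array, background mean and SD were estimated by regressing the median signal on detection p-values (as normal quantiles), and signals were corrected with normexp (offset 16) in limma 3.58.1 (R 4.3.3), quantile normalized and taken to log2, with HCC apart from the other 10 lines. Genes detected at p under 0.05 in at least 3 lines were tested with limma (lmFit and eBayes, Benjamini-Hochberg at 0.05), which was tested on simulated data first. P-values measure the spread between lines, since no line was read again. For a member with no detected line in a group, lines were set to the lowest detected signal of their array, higher values kept. The resulting fold is no bound, since a gene can miss detection above that signal. Precision is limited by 1 array per line. Groups came from the labels. LSD1 dependence, which the labels lack, was not analysed here. Named genes were all 10 members, the 5 genes with the highest r to AXIN2 per set, and of each pathway list every gene past the threshold or otherwise the 3 with the largest SD among genes detected in at least 3 lines, and genes named otherwise are said to be. The members and lists were chosen with earlier results of these data known. Alternatives changed the background correction, normalization, offset, starting values, detection filter, raised threshold and the lines included. Promoters were read with Python 3.11.15, and figures drawn with matplotlib 3.10.9.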

Additional observations from a re-analysis of the deposited data

Results flagged for a closer look

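Of 20 groups tested (10 members in lung and in pancreas lines), 3 held a line far from the other 4. A rate of about 1 in 20 such groups by chance alone is nominal. It was not tested for members at background in most lines, such as TCF7 and GLUL. TCF7 in MIA-PaCa-2 was 8.61, detected, and the nearest pancreas line had 5.51. TCF7 in Calu-1 was 6.91, not detected, and the nearest lung line had 5.20. GLUL in BxPC-3 was 6.28, not detected, and the nearest pancreas line had 5.40.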

How the results depend on the processing

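No paired analysis was possible because replicate numbers only name the lines in accession order. The 1 gene called between lung and pancreas lines became 2 under a filter of detection p below 0.01 in 5 or more lines, 3 without the libraries labelled Calu-3, Malme-3M and Capan-2, and 1 to 4 when single lines were left out. The highest count of raised members was 2 to 3 among HCC lines and 3 to 4 among the others when single lines were left out. For the lung and pancreas set it was 2 when at least 2 log2 over the median was asked, and 2 without the 3 libraries. It was 3 with no background correction and with the authors' processed values, each time in Capan-2. For HCC lines it stayed 3, in JHH-4, except without JHH-4 (2) and when at least 2 log2 was asked (2, in SK-HEP-1). Differences of lung minus pancreas changed sign for LGR5 (-0.15 without Calu-3), for LEF1 (0.16 without NCI-H596, 0.03 without Malme-3M, 0.82 without Capan-2 and 1.01 without the 3 libraries) and for AXIN2 (0.28 without Capan-2 and 0.99 without the 3 libraries), and the cause was not tested. With single lines left out these ranged from -0.15 to 0.47 for LGR5, -0.96 to 0.82 for LEF1, -1.71 to 0.28 for AXIN2 and -2.54 to -1.31 for DKK1. DKK1, ZNRF3 and TBX3 kept their direction in every alternative that gave a value, and none of the 6 members passed the threshold in any. Leaving out the 3 libraries, correlations and folds over the floor without Capan-2 or Hep3B, and counting raised members with no detection asked, were chosen after seeing the data. Dim members such as GLUL, NKD1 and TCF7 cannot be ordered among lines where they were not detected.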
